A study of Rattus norvegicus with 15 samples.

Results

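The collagens and laminins are the structural proteins of the connective tissue and the basement membrane under the digestive epithelium. Their 43 genes on the array (34 collagens and 9 laminin chains, out of 35533 gene names) were taken by name: every probe whose name in the scanner files was Col, a number, a and a number, or Lam, one of a, b or c, and a number. They were read by 76 probes of 60 bases each, and 20 of the genes had 1 probe. The brightest probe of each gene, with the highest mean over all samples, stood for it in the comparisons. Of the 43 genes, 42 passed the filter on dim probes and were tested. Col12a1 was not tested, since its probes were above background in at most 2 samples.

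RNA came from mucosal cell suspensions of rats in 5 groups of 3 samples: stomach, duodenum, jejunum, ileum and colon. Per the labels the rats were Sprague Dawley males, except for ileum 3, whose label gives neither strain nor sex, and treatment is given as none. Age is not stated. Per the series text, segments were turned inside out, digested for a short time with pronase and elutriated, a method meant to release mucosal cells from the gut wall. The 3 isolations per segment are called independent, but whether each used another animal is not labelled. P-values therefore measure only how much these isolations varied.

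Levels below are log2 processed intensities relative to the 75th percentile of the same sample, so 0 is that percentile. A level of one probe says nothing about its rank against another probe. Differences and their standard errors (SE) are log2 values from limma, and a gene was called at a Benjamini-Hochberg adjusted p under 0.05 over all 33644 genes tested. Median intensities per sample ranged from 92.4 in colon 3 to 1048 in ileum 3, and probes well above background from 44.4% in ileum 1 to 97.1% in stomach 3. The scanner software set the limit for that flag lower on the stomach arrays (a multiplier of 2.6 against 13 in the duodenum, jejunum and ileum). All 42 tested genes passed that limit in all 3 stomach samples, 32 in all 3 colon samples and 12 in all 9 small bowel samples. Scan days and software versions followed the segments, so for the stomach, the ileum and the colon, each on slides and scan days of its own, the segment and the scan batch cannot be told apart. The duodenum and jejunum shared their slides. All 3 colon samples lay on 1 slide: colon 1 in the Cy3 and colon 2 in the Cy5 channel, scanned on 1 day, and colon 3 in the Cy5 channel, scanned on another. Colon 2 and colon 3 may therefore not be separate hybridisations, and 1 alternative below took them as 1 sample. The labels fitted the tissues: 5 of 5 stomach markers were higher in stomach than in small bowel samples, 4 of 4 colon markers were higher in the colon, and both ileal markers were higher in the ileum than in the jejunum.

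Collagens are trimers wound into a triple helix whose chains repeat glycine at regular steps. The fibrillar types (I, II, III, V, XI, XXVII) form the cables of connective tissue, type IV forms the sheet of the basement membrane, type VI forms beaded microfibrils around cells, and types XV and XVIII are proteoglycan-bearing collagens of the basement membrane zone. Laminins are cross-shaped trimers of an alpha, a beta and a gamma chain that bind epithelial integrins and dystroglycan. In the gut wall, mesenchymal and endothelial cells make most fibrillar and type VI collagen, while the epithelium itself contributes laminin chains such as alpha 5 and beta 3.

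Along the tract, 20 of the 42 genes differed between segments by limma's F test (15 collagens and 5 laminins), against 42.1% of all genes. The mean level was highest in the stomach for 23 genes (39.2% of all genes), in the colon for 13 (28.0% of all genes) and in a small bowel segment for 6 (32.8% of all genes). Tested against each other segment in turn, 7 collagens were highest in the stomach, where 3.94% of all genes were (Col1a2, Col3a1, Col4a1, Col5a2, Col6a1, Col15a1 and Col18a1) and Col4a4 was highest in the colon, where 3.42% of all genes were. Among the 7, Col5a2, Col6a1 and Col15a1 passed the filter on dim probes through the stomach samples alone, where they were high and the flag was laxer. Col1a2 was lowest in the colon (4.89% of all genes) and Col4a1 lowest in the ileum (0.146% of all genes). No duodenal or jejunal level stood apart from all other segments in this way.

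**Figure D1:**
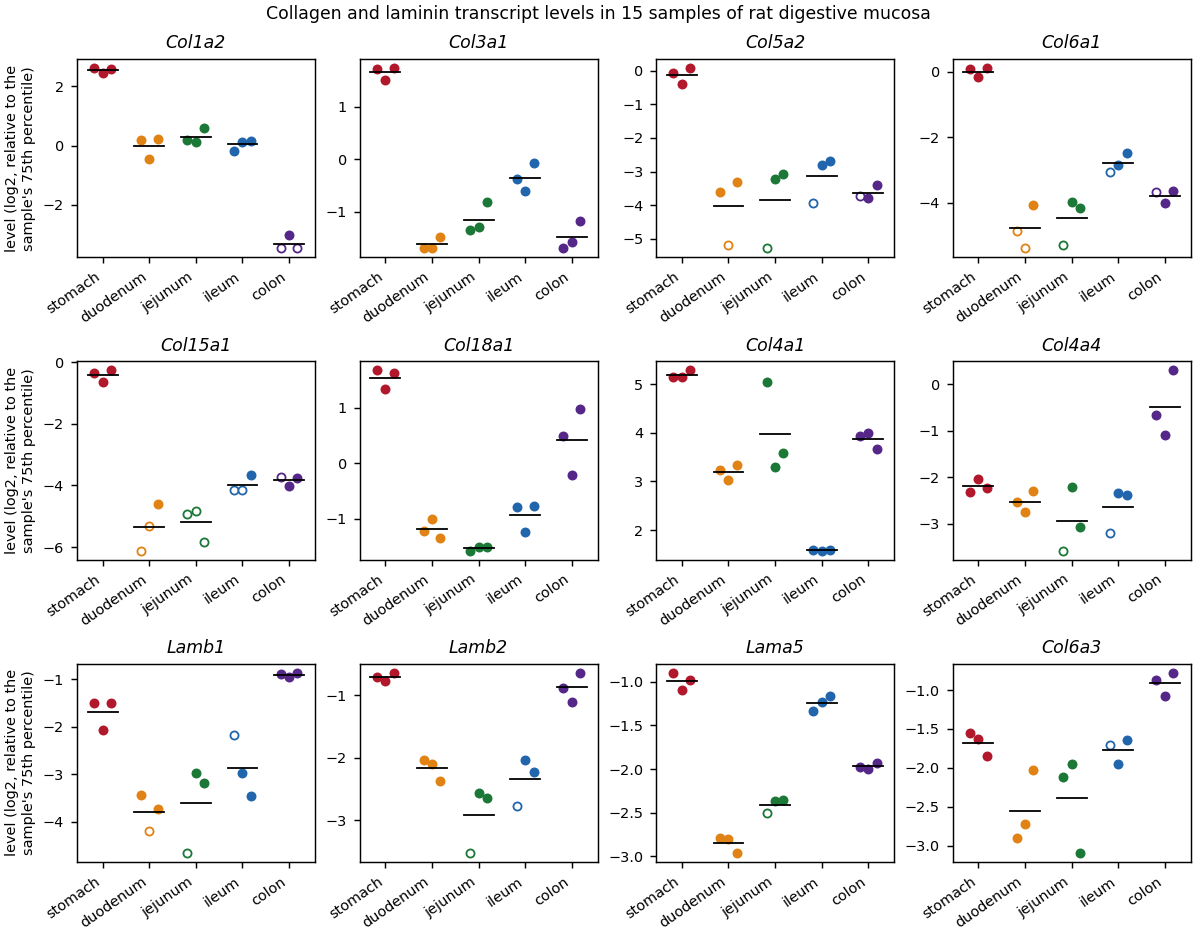
Levels of 12 collagen and laminin genes (log2, relative to each sample's 75th percentile) in 3 samples from each of 5 segments, one panel per gene with its own axis. Points are samples, open where the probe was not well above background, and bars are segment means. The 3 stomach samples of Col1a2, Col3a1, Col5a2, Col6a1, Col15a1 and Col18a1 lie above all other samples, the 3 colon samples of Col1a2 lie below all others, and the colon samples of Col4a4 and Lamb1 lie above all others.

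The first comparison set the stomach against the 9 small bowel samples (the mean of duodenum, jejunum and ileum). Of 42 genes, 13 were higher in the stomach (9 of 33 collagens and 4 of 9 laminins), where 15.5% of all genes were, and 0 were lower, where 11.7% of all genes were. The median difference was 0.52 over the 42 genes and 0.28 over all genes, so the whole scale was shifted towards the stomach in this comparison. Of the 42 differences, 40 were above 0, called or not, against 67.2% over all genes. All stomach samples lay above all small bowel samples for 12 of the 42, and for 15.3% of all genes. In bulk RNA of this kind, fewer cells of a type and less RNA per cell cannot be told apart.

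Fibrillar collagens were 4 of the 13. Col3a1 encodes the single chain of type III collagen, and its level was 1.71, 1.5 and 1.73 in the stomach, against -1.68 to -0.08 in the small bowel with a median of -1.29. All stomach samples lay above all small bowel samples, and the fitted difference was 2.69 ± 0.21 (6.44-fold, adjusted p = 3.62e-08 by limma). Col1a2, the alpha 2 chain of type I collagen, stood at 2.62, 2.44 and 2.59 in the stomach, against -0.47 to 0.59 in the small bowel with a median of 0.17, a difference of 2.44 ± 0.22 (5.44-fold, adjusted p = 2.46e-07). Its second probe differed by only 0.59 and was not called, and the mean over both Col1a2 probes gave 2.86-fold. Col5a2, a chain of the type V collagen that copolymerises with type I, had levels of -0.08, -0.38 and 0.08 in the stomach, against -5.28 to -2.68 in the small bowel with a median of -3.30. These groups lay far apart, with a difference of 3.55 ± 0.45 (11.7-fold, adjusted p = 1.14e-05). Its partner chain Col5a1 was higher by 1.04 ± 0.32 (2.06-fold, adjusted p = 0.0216). Not called were Col5a3, Col11a1, Col11a2, Col2a1, Col27a1 and, by its brightest probe, Col1a1 (0.45 ± 0.26).

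The probes of Col1a1, Col3a1 and Col5a2 below are shown because they read the same conserved end of the fibrillar chains, the C-propeptide that is cut off after assembly, so the 3 genes can be compared at a matched site. Capitals mark the 21 bases that are identical in all 3 at the best ungapped alignment. In pairs, 69.8% to 70.7% of aligned bases were identical.
Col1a1: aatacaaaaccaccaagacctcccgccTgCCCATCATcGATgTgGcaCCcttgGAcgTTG
Col3a1: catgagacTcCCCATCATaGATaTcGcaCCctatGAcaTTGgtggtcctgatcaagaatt
Col5a2: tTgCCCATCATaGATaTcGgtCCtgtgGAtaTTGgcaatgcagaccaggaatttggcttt
The stomach minus small bowel difference was 0.45 for this Col1a1 probe (the brightest of its gene), 2.69 for Col3a1 and 3.28 ± 0.44 for this Col5a2 probe, which is not the brightest. The Col5a2 probe passed the filter on dim probes through the stomach samples alone.

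Col15a1 encodes a collagen linking basement membranes to the matrix below. It had levels of -0.35, -0.64 and -0.27 in the stomach, against -6.11 to -3.66 in the small bowel with a median of -4.83. The difference was 4.42 ± 0.35 (21.3-fold, adjusted p = 4.94e-08), with 2 of 9 small bowel samples well above background, and 4.23-fold under normexp background correction. Col18a1, its closest relative and the precursor of endostatin, was at 1.67, 1.34 and 1.62 in the stomach, against -1.57 to -0.77 in the small bowel with a median of -1.23. It was measured in all 9 small bowel samples, and the difference was 2.76 ± 0.26 (6.75-fold, adjusted p = 5.04e-07). The transmembrane collagens Col13a1, Col17a1 and, by its brightest probe, Col23a1 were not called against the small bowel. The other Col23a1 probe was higher in the stomach (1.04 ± 0.33, adjusted p = 0.0245).

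The Col15a1 probe and both Col18a1 probes read the endostatin region at the end of the chain and are shown because both genes were higher in the stomach at homologous sites. In the first 2 lines capitals mark the 38 of 58 aligned bases (65.5%) that Col15a1 and the first Col18a1 probe share. In the third line they mark the 37 bases by which both Col18a1 probes overlap.
Col15a1: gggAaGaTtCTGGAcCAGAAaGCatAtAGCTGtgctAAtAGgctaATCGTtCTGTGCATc
Col18a1 first probe: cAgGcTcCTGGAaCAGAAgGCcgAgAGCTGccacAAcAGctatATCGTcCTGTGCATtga
Col18a1 second probe: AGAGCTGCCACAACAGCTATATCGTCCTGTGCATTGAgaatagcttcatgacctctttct
The second Col18a1 probe is the brightest and gave the values above. The first gave 3.84 ± 0.37 for stomach minus small bowel (14.3-fold, adjusted p = 4.69e-07 over all probes), so both Col18a1 probes were higher in the stomach.

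Among the microfibrillar type VI chains, Col6a1 was called and its partners were not. Col6a1 had levels of 0.07, -0.17 and 0.11 in the stomach, against -5.38 to -2.49 in the small bowel with a median of -4.05. The difference was 4.01 ± 0.34 (16.1-fold, adjusted p = 1.07e-07), with 5 of 9 small bowel samples well above background. Col6a2 (0.98 ± 0.49, adjusted p = 0.16) and Col6a3 (0.56 ± 0.27, adjusted p = 0.15) make the same trimer with Col6a1 and had smaller fitted differences that were not called. Col7a1, the anchoring fibril collagen, had a difference of 0.61 ± 0.36 and was not called. In the fibril-associated group, 1 of 7 genes was called: Col16a1 differed by 1.91 ± 0.46 (3.76-fold, adjusted p = 0.00448). Its stomach levels of 0.37, -0.02 and 0.19 overlapped the small bowel, because jejunum 1 stood at 1.25 while the other 8 small bowel samples lay between -4.07 and -1.15.

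Type IV collagen, the basement membrane sheet, is built here from the chains Col4a1, Col4a2, Col4a4 and Col4a5. Col4a1 alone was called in the stomach, at 5.15, 5.15 and 5.28, against 1.58 to 5.04 in the small bowel with a median of 3.24 (2.27 ± 0.30, 4.82-fold, adjusted p = 1.73e-05). Jejunum 1, at 5.04, came close to the stomach samples, and every other small bowel sample was at 3.59 or below. Col4a2, which joins Col4a1 in the common type IV trimer, differed by 0.52 ± 0.25 (adjusted p = 0.14). The short-chain network collagens Col8a1, Col8a2 and, by its brightest probe, Col10a1 were not called in any of the 5 comparisons. The other Col10a1 probe was called higher in the stomach than in the colon (1.99). It passed the filter on dim probes through the stomach samples alone.

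Of the laminins, Lamb2, Lamb1, Lama5 and Lamb3 were higher in the stomach. Lamb2 had levels of -0.70, -0.77 and -0.65 in the stomach, against -3.52 to -2.03 in the small bowel with a median of -2.37. The groups did not overlap, and the difference was 1.76 ± 0.28 (3.39-fold, adjusted p = 1.52e-04). Lamb1, the beta chain of the widespread laminins, differed by 1.73 ± 0.37 (3.31-fold, adjusted p = 0.00171). Lama5, the main epithelial alpha chain of the adult gut, differed by 1.17 ± 0.22 (2.25-fold, adjusted p = 6.57e-04). Lamb3, the beta chain of the hemidesmosomal laminin, had the smallest called difference (0.78 ± 0.26, 1.72-fold, adjusted p = 0.031), and its groups overlapped. By their brightest probes, the chains Lamc1 (0.45 ± 0.36), Lamc3 (0.38 ± 0.33), Lama1 (0.17 ± 0.57) and Lama2 (0.44 ± 0.45) were not called. Other probes were: 1 of 2 Lamc3 probes (1.26 ± 0.42, adjusted p = 0.0316) and 2 of 4 Lama2 probes (1.43 ± 0.38 and 1.15 ± 0.41, adjusted p = 0.00859 and 0.0449) were higher in the stomach. These Lamc3 and Lama2 probes passed the filter on dim probes through the stomach samples alone, where the flag was laxer.

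The calls of Col18a1, Col3a1, Col1a2, Col4a1, Lamb2, Lamb1 and Lama5 held under all 28 alternatives. Col15a1, Col6a1 and Col5a2 passed the filter on dim probes through the stomach samples alone, where they were high and the flag was laxer. They were not tested when the filter ignored the stomach flags, and held under the other 27. The calls of Lamb3 and Col5a1 were lost without any 1 of the stomach samples (log2 differences of 0.72 to 0.82 and 0.98 to 1.1), and that of Col16a1 without stomach 3 (1.64, adjusted p = 0.0533). The call of Lamb3 was also lost without duodenum 1, duodenum 2 or colon 3 (0.73, 0.69 and 0.78) and with no intensity trend (adjusted p = 0.0541). With the scan day as the block, the calls of Lamb3 (adjusted p = 0.198), Col5a1 (0.132) and Col16a1 (0.0548) were all lost. Normexp background correction here adds a constant to every signal, which shrinks the folds of dim probes most. Under it the folds of the called genes were 1.25 to 6.13, Col6a1 was 4.52-fold and Col5a2 3.89-fold higher, and the call of Col5a1 was lost (1.25-fold, adjusted p = 0.117).

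**Figure D2:**
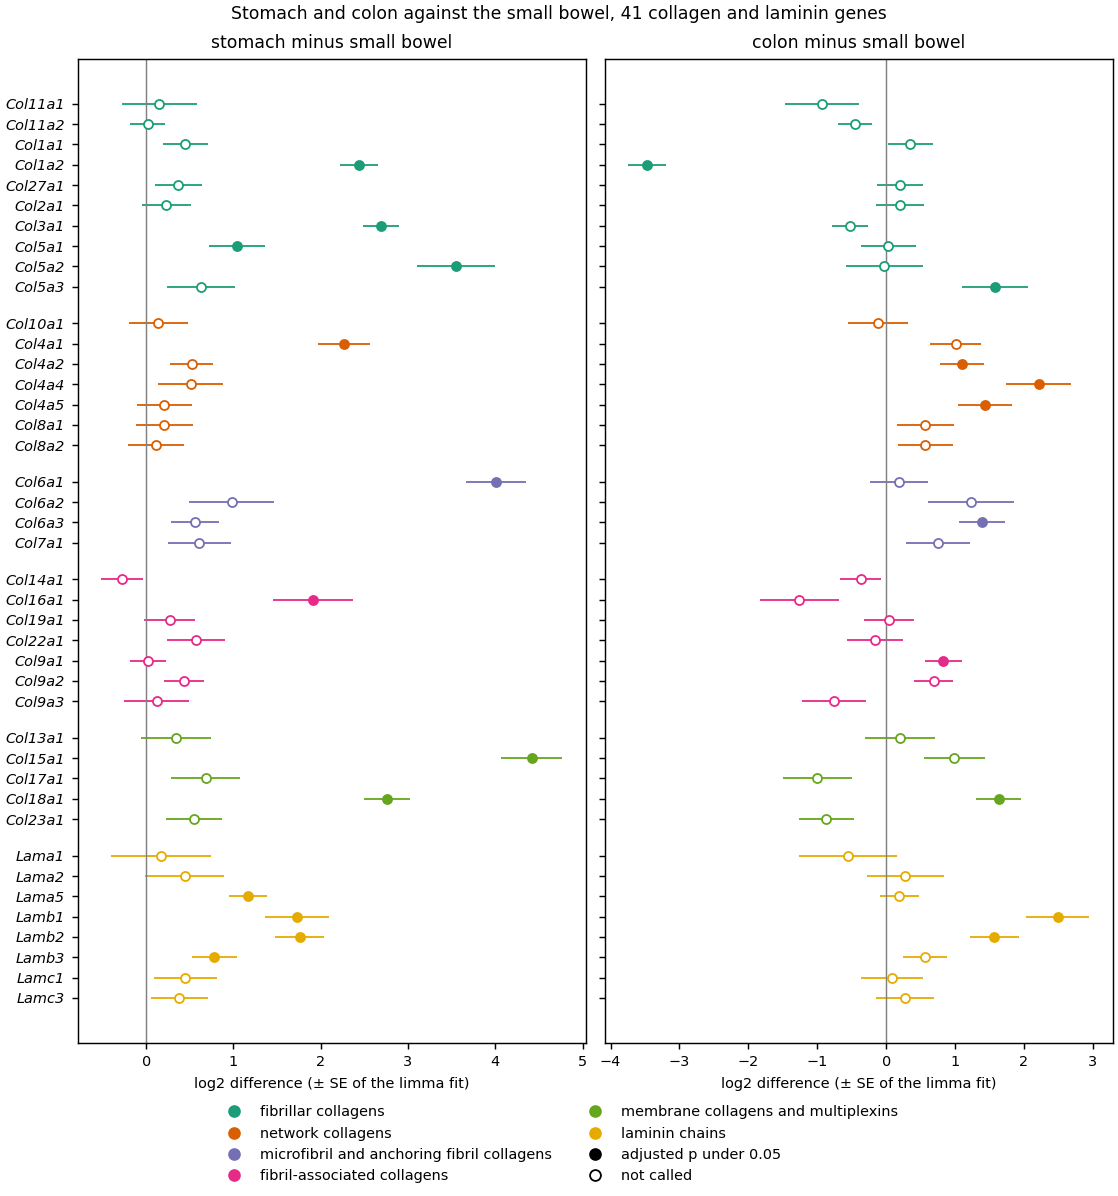
Log2 differences of 41 collagen and laminin genes for stomach minus small bowel (left) and colon minus small bowel (right), with the SE of the limma fit as bars; the x axes differ in range. Filled points passed an adjusted p under 0.05. In the stomach 13 points are filled and all are above 0, and in the colon 9 filled points are above 0 and 1, Col1a2, is below.

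Markers of connective tissue and vessels moved in the same comparison, where 15.5% of all genes were called higher and 11.7% lower. The mean level of 10 fibroblast markers was -0.31 to -0.26 in the stomach, against -2.77 to -1.61 in the small bowel, and 6 of the 10 were called higher (median difference 1.64). Decorin (Dcn), a proteoglycan of collagen fibrils, was 152-fold higher, and Postn, periostin, was at least 5.34-fold higher, since it was not well above background in any of the 9 small bowel samples. Several listed markers, such as Postn, Pdgfra, Emcn and Kcnj8, passed the filter on dim probes through the stomach samples alone, where the flag was laxer. Of 10 endothelial markers, 7 were called higher, with mean levels of -0.64 to -0.41 in the stomach, against -2.54 to -1.52 in the small bowel. Of 5 pericyte markers, 4 were called higher, with mean levels of -0.12 to 0.19 in the stomach, against -2.23 to -1.47 in the small bowel. Smooth muscle markers were mixed, with 2 of 8 higher and 1 lower (-0.76 to -0.63 in the stomach, against -1.87 to -0.94 in the small bowel). Of 8 enteric neuron and glia markers, 4 were higher and 0 were lower. Of 8 epithelial markers, 6 were lower in the stomach, with means of 2.27 to 2.45, against 4.26 to 5.25 in the small bowel; some of these, such as Krt20, mark intestinal epithelium. The part of these cell types in the collagen and laminin differences was not tested.

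**Figure D3:**
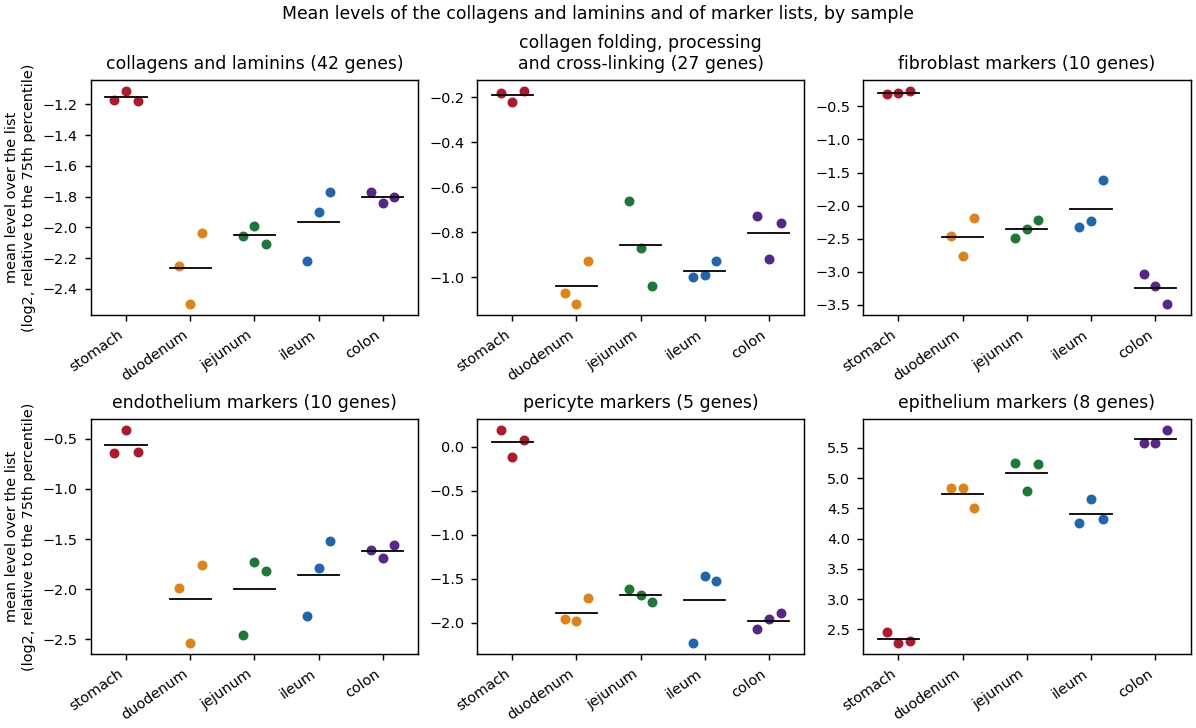
Mean level of the 42 tested collagen and laminin genes and of 5 other lists in each sample (log2, relative to the 75th percentile; each panel has its own axis), with bars at segment means. For the collagens and laminins, the folding enzymes and the fibroblast, endothelium and pericyte markers, the 3 stomach samples lie above the other 12; for the fibroblast markers the 3 colon samples lie below the other 12; for the epithelial markers the stomach samples lie below the other 12.

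The colon was compared with the same 9 small bowel samples. Of 42 genes, 9 were higher in the colon (12.6% of all genes were) and 1 was lower (13.2% of all genes were). The median difference was 0.23 over the 42 genes and 0.00 over all genes. The 9 were Lamb1, Lamb2, Col4a2, Col4a4, Col4a5, Col5a3, Col6a3, Col9a1 and Col18a1. The stomach and the colon were set against the same small bowel samples, so the lists are given side by side: Lamb1, Lamb2 and Col18a1 were called higher in both.

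Lamb1 had levels of -0.90, -0.95 and -0.87 in the colon, against -4.65 to -2.18 in the small bowel with a median of -3.44. The colon samples were close together and above all others, and the difference was 2.49 ± 0.46 (5.62-fold, adjusted p = 8.25e-04). Lamb2 was at -0.88, -1.1 and -0.64 in the colon and differed by 1.57 ± 0.36 (2.97-fold, adjusted p = 0.00398). Col18a1 differed by 1.63 ± 0.33 (3.1-fold, adjusted p = 0.00176), from colon levels of 0.50, -0.21 and 0.97.

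Col4a4, a chain of the type IV trimer best known from the kidney glomerulus, was at -0.67, -1.1 and 0.30 in the colon, against -3.58 to -2.20 in the small bowel with a median of -2.53. The groups did not overlap, the spread among colon samples was wide (SD 0.717), and the difference was 2.21 ± 0.47 (4.63-fold, adjusted p = 0.00232). Col4a5 joins Col4a4 in that trimer and differed by 1.43 ± 0.39 (2.69-fold, adjusted p = 0.013), with overlap between the groups. Col4a2 differed by 1.1 ± 0.32 (2.14-fold, adjusted p = 0.0171), while Col4a1 had a difference of 1.01 ± 0.37 and was not called (adjusted p = 0.055). Col6a3, at -0.87, -1.08 and -0.78 in the colon, differed by 1.39 ± 0.34 (2.62-fold, adjusted p = 0.00675), where Col6a1 did not pass (0.18 ± 0.42). Col5a3 (1.58 ± 0.48, adjusted p = 0.024) and Col9a1 (0.83 ± 0.27, adjusted p = 0.0294), whose type IX collagen is known mainly from cartilage, were called with overlapping groups.

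Col1a2 was the 1 gene that was lower. It had levels of -3.47, -3.03 and -3.46 in the colon, against -0.47 to 0.59 in the small bowel, and 1 of 3 colon samples was well above background. The difference was -3.47 ± 0.28 (11-fold lower, adjusted p = 2.70e-07). Its second probe was not called and pointed the same way at a smaller size, and the mean over both probes gave -2.09. The other major fibrillar genes were not called in the colon: Col3a1 had a difference of -0.53 ± 0.26, Col5a2 of -0.03 ± 0.56 by its brightest probe and Col1a1 of 0.35 ± 0.33. The C-propeptide probe of Col5a2 was lower in the colon (-1.86 ± 0.55, adjusted p = 0.0193), with 1 of 3 colon samples well above background. Fibroblast markers were also lower in the colon in 5 of 10 and higher in 0 (13.2% and 12.6% of all genes were), with mean levels of -3.49 to -3.04 in the colon, against -2.77 to -1.61 in the small bowel. Endothelial markers were higher in 3 of 10 and lower in 1. Their part in the Col1a2 and laminin differences was not tested.

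Lamb1, Lamb2, Col18a1, Col1a2, Col4a4 and Col6a3 kept their call under all 28 alternatives. The calls of Col4a2, Col4a5 and Col5a3 were lost without colon 1 (1.08, 1.32 and 1.28). That of Col9a1 was lost without stomach 1, duodenum 2, colon 2 or colon 3 (0.83, 0.76, 0.77 and 0.84), with colon 2 and colon 3 taken as 1 sample (adjusted p = 0.0734) and under quantile normalisation (adjusted p = 0.0634). Normexp ended the calls of Col4a2 (1.27-fold, adjusted p = 0.0509) and Col9a1 (1.35-fold, adjusted p = 0.106), and under it Lamb1 was 2.35-fold higher and Col1a2 5.18-fold lower in the colon. Averaging the probes of a gene reversed Col4a5 (-0.29) and Col9a1 (-0.30).

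Set directly against the colon, the stomach had 11 genes higher (20.9% of all genes were) and 4 lower (14.4% of all genes were), with a median difference of 0.21 over the 42 genes and 0.26 over all genes. Col1a2 differed by 5.91 ± 0.31 (60.2-fold, adjusted p = 9.95e-10) by its brightest probe. Its second probe was also called, at a smaller difference of 1.31, and the mean over both gave 12.2-fold. Col6a1 (3.83 ± 0.48, 14.2-fold), Col5a2 (3.59 ± 0.63, 12-fold), Col15a1 (3.43 ± 0.49, 10.8-fold), Col3a1 (3.22 ± 0.29, 9.29-fold) and Col16a1 (3.17 ± 0.65, 9.03-fold) were also higher. In each the 3 stomach samples lay above the 3 colon samples, but the samples did not overlap for 26 of the 42 genes. The share over all genes was not counted, so this singles out no gene. Smaller differences were called for Col17a1 (1.69), Col23a1 (1.41), Col4a1 (1.26), Col18a1 (1.12) and Lama5 (0.98). Col17a1, a hemidesmosomal collagen, was well above background in 3 stomach samples and 1 colon sample. Among the 4 lower genes were Col4a4 (-1.70 ± 0.52), Col4a5 (-1.22 ± 0.44) and Col9a1 (-0.81 ± 0.30). Of these 15 calls, 7 held under every alternative in which they were tested, among them those of Col1a2, Col3a1, Col16a1, Col5a2, Col6a1 and Col15a1, of which the last 3 were again not tested when the filter ignored the stomach flags. Normexp gave 31.8-fold for Col1a2, 4.49-fold for Col6a1 and 4.19-fold for Col5a2. The Col17a1 difference was 1.11-fold under normexp (adjusted p = 0.356) and 1.84-fold under quantile normalisation (adjusted p = 0.312), and its call was lost with the scan day as the block (adjusted p = 0.055). Like those 3, it was not tested under the filter that ignored the stomach flags. The Col23a1 difference was 1.71-fold under quantile normalisation (adjusted p = 0.121) and 1.8-fold as the mean over its probes (adjusted p = 0.135). The brightest Col23a1 probe passed the filter on dim probes through the stomach samples alone. With the filter that ignored the stomach flags, the other Col23a1 probe was read instead and gave 1.21-fold (adjusted p = 0.677). The Lama5 call was lost under normexp (1.25-fold, adjusted p = 0.16), quantile normalisation (1.64-fold, adjusted p = 0.0755) and the scan day block (adjusted p = 0.0503), and the Col18a1 call under that block (adjusted p = 0.0592). Col4a1 was 4.72-fold higher under normexp and 4.15-fold under quantile normalisation, and lost its call with colon 2 and colon 3 taken as 1 sample (adjusted p = 0.056). Averaging the probes reversed Col4a5 (2.11) and Col9a1 (0.75). Leaving out 1 sample ended the following: Col4a1 without stomach 2, stomach 3, colon 1 or colon 3 (1.11 to 1.31), Col18a1 without stomach 1, stomach 3 or colon 2 (0.83 to 1.07), Lama5 without stomach 1, stomach 3 or colon 1 (0.93 to 0.97), and Col4a4 without stomach 3 or colon 3 (-1.67 and -1.34). Col17a1 was lost without stomach 2, stomach 3, colon 1 or colon 3 (1.44 to 1.66), and Col23a1 without stomach 2, stomach 3 or colon 3 (1.33 to 1.41). Col4a5 was lost without any 1 of the stomach samples, colon 1, colon 2, duodenum 2 or jejunum 2 (-1.38 to -1.09), and Col9a1 without any 1 of the stomach or colon samples, duodenum 1, duodenum 2 or ileum 2 (-0.91 to -0.73). Without stomach 3 the counts were 6 higher and 1 lower. The count of lower genes was 2 without stomach 1, stomach 2, duodenum 2 or any 1 of the colon samples.

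Within the small bowel, the duodenum and jejunum were hybridised in pairs on shared arrays. Limma called 0 of 42 genes higher and 0 lower in the duodenum than in the jejunum, where 0.253% and 0.297% of all genes were called. The median difference was -0.20 over the 42 genes and -0.02 over all genes. By array, the median over the 42 genes was -0.25 for duodenum 1 minus jejunum 3, -0.37 for duodenum 2 minus jejunum 1 and -0.03 for duodenum 3 minus jejunum 2. In all 3 pairs, 8 genes had a lower level in the duodenum and 2 a higher level, and the other 32 were mixed. The share of all genes that went 1 way in all 3 pairs was not counted, so these counts single out no gene. Without jejunum 2, 4 of the genes were called lower, and so were 672 of all 33648 genes tested. Without duodenum 3, 1 of the genes was called lower, and so were 255 of all 33645. In the main fit 100 of all 33644 were.

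The ileum differed from the jejunum in 6 of 42 genes, with 3 higher (1.46% of all genes were) and 3 lower (2.73% of all genes were). Lama5 stood at -1.34, -1.23 and -1.16 in the ileum, against -2.50, -2.37 and -2.35 in the jejunum, a difference of 1.17 ± 0.27 (2.25-fold, adjusted p = 0.0233). The segment means of this chain were -0.99 (stomach), -2.85 (duodenum), -2.41 (jejunum), -1.24 (ileum) and -1.97 (colon). Limma did not call stomach minus ileum (0.25 ± 0.27, adjusted p = 0.563) or jejunum minus colon (-0.44 ± 0.31, adjusted p = 0.321), although the samples of each pair of segments did not overlap. The replicate SD was between 0.0381 and 0.0996 in each segment. Col6a1 was also higher in the ileum (1.73 ± 0.41, 3.32-fold, adjusted p = 0.0274), from levels of -3.05, -2.83 and -2.49, against -5.28, -3.96 and -4.16 in the jejunum. Col4a5 was the third (1.46 ± 0.38, 2.76-fold, adjusted p = 0.0386).

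The 3 genes lower in the ileum were Col4a1, Col16a1 and Col1a1. Col4a1 had levels of 1.60, 1.58 and 1.59 in the ileum, against 5.04, 3.30 and 3.59 in the jejunum (-2.45 ± 0.36, 5.45-fold lower, adjusted p = 0.00137). Jejunum 1 stood apart from the other jejunal samples for all 3 genes: it was at 5.04 for Col4a1, 1.25 for Col16a1 (the others at -1.37 and -1.78) and 2.41 for Col1a1 (the others at 1.39 and 1.52). Without jejunum 1 the Col4a1 difference was -1.79 and remained called, that of Col16a1 was -1.80 and remained called, and that of Col1a1 was -0.93 (adjusted p = 0.115). Without jejunum 1 the calls of Lama5 (1.1), Col4a5 (1.39) and Col6a1 (1.42) were lost, as they were without ileum 2 (1.16, 1.53 and 1.75) or ileum 3 (1.13, 1.70 and 1.58). Without ileum 1 those of Col16a1 (-2.26), Col1a1 (-1.23) and Col4a5 (1.16) were lost. The call of Col4a5 was also lost without any 1 of the stomach samples, duodenum 1, jejunum 3, colon 1 or colon 2 (1.42 to 1.48), under normexp (1.28-fold, adjusted p = 0.224) and under quantile normalisation (adjusted p = 0.125). With the scan day as the block, the calls of Lama5 (adjusted p = 0.0541) and Col4a5 (0.0789) were lost. Averaging the probes ended those of Col4a1 (-0.72), Col16a1 (-0.85), Lama5 (0.84) and Col4a5 (0.90) and turned Col1a1 to 0.04. With the replicate number as the block, those of Col4a5 (adjusted p = 0.0538) and Col6a1 (0.059) were lost, and with no intensity trend that of Col1a1 (0.0547). In the same comparison, 3 of 8 immune markers were higher in the ileum (1.46% of all genes were), with mean levels of 1.15 to 1.35, against -0.05 to 0.75 in the jejunum. Of the fibroblast markers 1 of 10 was higher, and their mean levels overlapped (-2.33 to -1.61 in the ileum, against -2.49 to -2.22 in the jejunum). The part of these cells in the ileal differences was not tested.

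Several of these genes had probes that went different ways, so each probe was also fitted on its own, with p-values adjusted over all 38835 probes. Of 22 genes with several tested probes, all probes were called in 1 direction in the stomach against the small bowel for 5, some but not all for 11, and none for 6. In the colon against the small bowel, 2 genes (Col4a5 and Col9a1) had probes called in opposite directions. For Col4a5 the lower of them was not well above background in any sample of either side. The other Col9a1 probe differed by -1.44 ± 0.38 in the colon, against 0.83 for the brightest.

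Type I collagen was the clearest case. The third Col1a1 probe was at 2.54, 2.57 and 2.62 in the stomach, against -4.88 to -0.94 in the small bowel, and at -3.16, -3.36 and -3.72 in the colon. Its stomach minus small bowel difference was 5.48 ± 0.41 (44.7-fold, adjusted p = 2.58e-08), and its stomach minus colon difference was 6.17 ± 0.58 (71.8-fold), near that of the brightest Col1a2 probe. The brightest Col1a1 probe, shown above, was called in neither comparison (0.45 ± 0.26 and 0.10 ± 0.36), and the remaining one was called against the small bowel only, at 1.12 ± 0.26 (2.17-fold, adjusted p = 0.00357). In the ileum against the jejunum these probes had opposite calls, 2.13 ± 0.50 for the third and -1.39 ± 0.32 for the brightest. Which of them reads the spliced transcript better was not tested.

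Col4a1 also depended on the probe. Its brightest probe is the richest in G and C of all 76, at 73.3%, and is shown for that, with G and C in capitals.
Col4a1 brightest probe: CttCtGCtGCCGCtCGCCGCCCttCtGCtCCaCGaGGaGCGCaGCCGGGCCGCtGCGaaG
The other Col4a1 probe, at 55.0% G and C, was at -0.09, -0.31 and -0.04 in the stomach, against -5.40 to -2.83 in the small bowel, a difference of 3.81 ± 0.38 (14.0-fold, adjusted p = 8.88e-07). Both probes were therefore higher in the stomach. In the ileum, where the brightest probe was lowest of all segments, the other probe was at -3.77, -2.83 and -2.83, against -4.95, -4.11 and -3.45 in the jejunum, and was not called, so the lower ileal level rested on the brightest probe alone.

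Col4a1 and Col4a2 lie head to head on chromosome 16 of the rat and share the stretch between their start sites. These 76 bases, chr16:84885521-84885596 on the plus strand (RefSeq, build GRCr8), are shown because the pair shares them. Col4a1 was called against the small bowel in the stomach and Col4a2 in the colon. Both genes had positive differences in both comparisons, and they were not tested against each other. Capitals mark the 1 match to GGGCGG, a GC box, on the minus strand, where it reads CCGCCC.
between Col4a2 and Col4a1: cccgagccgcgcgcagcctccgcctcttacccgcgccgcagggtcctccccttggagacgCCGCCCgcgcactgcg
Among the 33469 promoters in the RefSeq table, 18.1% hold GGGCGG on either strand in the 76 bases before the start. CCAAT was searched on both strands too and had 0 matches here, against 13.0% of promoters. A match of letters is not evidence of binding.

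For Col4a5 the brightest probe lies in the triple helix, and its 7 GGN codons for glycine, of 20 in the probe, are in capitals.
Col4a5 brightest probe: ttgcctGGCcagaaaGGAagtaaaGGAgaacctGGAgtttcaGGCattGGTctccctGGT
This probe was higher in the colon, as given above. The other Col4a5 probe was at -1.42, -1.51 and -1.26 in the stomach and was not well above background in any small bowel or colon sample, so the stomach was at least 5.65-fold higher than the small bowel (adjusted p = 1.32e-05) and at least 9.74-fold higher than the colon (adjusted p = 5.77e-06). That other probe was tested only because it passed the laxer flag in the stomach samples. The brightest probe gave the opposite order for stomach and colon (-1.22). For Col22a1, the brightest probe was not called, while the other was at least 4.15-fold higher in stomach than in small bowel samples (adjusted p = 2.03e-05).

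Lamb3 had 4 probes. The brightest was not called in the colon, but 2 others were: one was at 3.33, 3.21 and 3.21 in the colon, against -3.94 to 1.75 in the small bowel (4.42 ± 0.70, 21.4-fold, adjusted p = 2.40e-04), and the other differed by 2.91 ± 0.52 (7.54-fold, adjusted p = 6.13e-04). Both were also higher in stomach than in small bowel samples, by 2.85 ± 0.56 and 1.53 ± 0.41. By contrast, all 3 probes of Col5a2, both of Col5a1, both of Col18a1 and all 3 of Lama5 were higher in the stomach. The Col5a2 probes and the dimmer Col5a1 probe passed the filter on dim probes through the stomach samples alone.

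**Figure D4:**
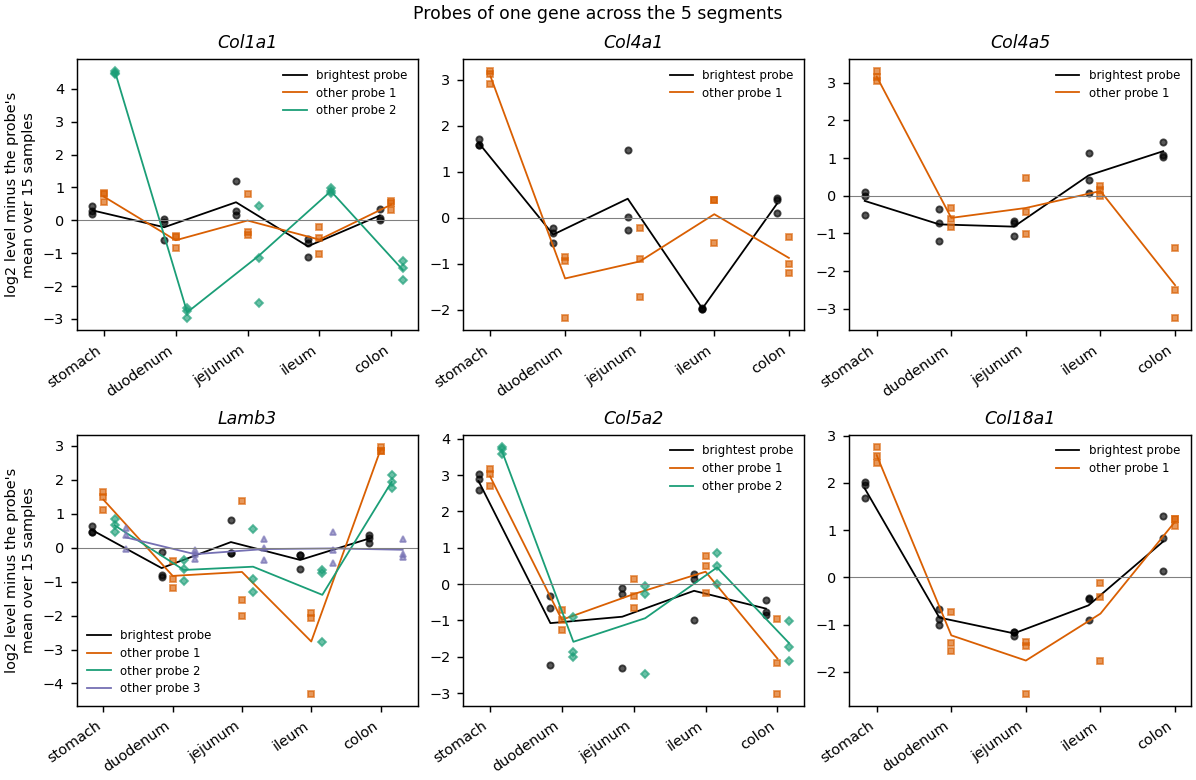
Levels of each probe of 6 genes in the 5 segments, as the log2 level minus that probe's own mean over 15 samples; points are samples and lines join segment means. For Col18a1 the probes follow one another, and for Col5a2 they do so except in the colon, where the other probes lie below the brightest one. For Col1a1, Col4a5 and Lamb3 other probes depart from the brightest one in the stomach, the colon or both.

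The enzymes that fold, trim and cross-link collagen were read from a list of 31 genes, of which 27 were tested. In the stomach against the small bowel, 12 were higher and 2 lower (15.5% and 11.7% of all genes were), with a median difference of 0.68, against 0.28 over all genes. The 3 prolyl 4-hydroxylase alpha chains, which stabilise the triple helix, were higher: P4ha1 by 2.06 ± 0.33 (4.17-fold), P4ha2 by 1.82 ± 0.22 (3.54-fold) and P4ha3 by 1.12 ± 0.32 (2.17-fold). The prolyl 3-hydroxylase P3h2 was at -1.62, -2.07 and -1.75 in the stomach and not well above background elsewhere, at least 4.41-fold higher than in the small bowel (adjusted p = 4.96e-05). P3h2, P4ha3 and Plod2 of this list passed the filter on dim probes through the stomach samples alone, where the flag was laxer. The cross-linking lysyl oxidases Lox (4.29-fold), Loxl1 (3.54-fold) and Loxl2 (2.14-fold) were higher as well. P4hb, the beta subunit that also serves as a general disulphide isomerase, was lower (-0.95 ± 0.27). In the colon 6 were higher and 2 lower (median 0.18), where 12.6% and 13.2% of all genes were. Bmp1, the procollagen C-proteinase, was at 3.49, 3.59 and 3.41 in the colon, against 0.92 to 2.77 in the small bowel (1.83 ± 0.32, adjusted p = 5.26e-04).

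Nidogens, SPARC proteins and other partners in the basement membrane were mostly not called, as were most genes tested. Of 15 tested partners, 1 was higher and 2 were lower in stomach than in small bowel samples (15.5% and 11.7% of all genes were), with a median of -0.14. In the colon 0 were higher and 3 lower (12.6% and 13.2% of all genes were), with a median of -0.07. Sparc, a collagen-binding matricellular protein, was 6.02-fold higher in the stomach (adjusted p = 8.73e-04), and Tinag, a tubulointerstitial nephritis antigen, was 19.0-fold lower there. Nid2, which links laminin to type IV collagen, was at -4.98, -5.48 and -5.59 in the colon, against -4.30 to 1.17 in the small bowel, and was at least 8.68-fold lower (adjusted p = 1.90e-04). Its relative Nid1 was not called in any of the 5 comparisons.

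Of 14 tested receptors for collagen and laminin, 2 were higher and 3 lower in stomach than in small bowel samples (15.5% and 11.7% of all genes were). In the colon 2 receptors were higher and 3 lower (12.6% and 13.2% of all genes were). The laminin-binding integrin chain Itga6 was lower in both (-1.38 ± 0.35 in the stomach, -1.37 ± 0.44 in the colon), and its hemidesmosomal partner Itgb4 was lower in the stomach (-1.12 ± 0.33). The common beta chain Itgb1 was lower in the colon (-1.75 ± 0.35, adjusted p = 0.00162). Bcam, a receptor for the laminin alpha 5 chain, was higher in the colon (1.33 ± 0.38), and the collagen-binding kinase Ddr1 was higher in the stomach (1.26 ± 0.38).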

How the data were processed

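The deposited files hold Agilent rat array intensity values per spot, background-subtracted and dye-normalised by the scanner software (Feature Extraction 8.5.1.1 to 10.1.1.1, per the file headers). Only the channel labelled with each of the 15 samples was read. The series text also describes division by a median over all samples, which the deposited intensity values do not carry. Here spots with non-uniformity or population outlier flags were left out, log2 of the processed signal minus the 75th percentile of the sample was taken, and a probe was kept if all samples of 1 or more segments flagged it well above background. Segment and dye were fitted in limma 3.58.1 (R 4.3.3) with the slide as a random block (correlation 0.361), with an intensity trend and Benjamini-Hochberg adjustment over 33644 genes. The fit was tested on simulated data. A group with no sample well above background gives a bound, "at least N-fold": the bright mean against, per array, the higher of the dimmest signal well above background and the dim probe's own. Colon files hold no mean signal, so normexp (offset 50) used median signals for all samples. Quantile normalisation followed it, in place of the 75th percentile. Every gene of the family could be named, and called genes were described from the largest difference down, with their partner chains; other genes came from named lists. The genes and lists were chosen with earlier results of these data known. Symbols were updated through RefSeq; all 43 genes matched, and 33 had a promoter entry. Alternatives were another scaling, background correction, filter, block or probe rule, and leaving out each sample. Precision is limited by the number of arrays. The values of 1 tested gene are not reported here, though the counts include it.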

Additional observations from a re-analysis of the deposited data

How the results depend on the processing

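Of 1224 alternative values over the 44 gene and contrast pairs called, 1105 kept direction and call, 114 lost the call and 5 reversed. All 5 reversals came from averaging the probes of a gene: Col9a1 gave -0.30 and Col4a5 -0.29 in the colon against the small bowel, Col9a1 0.75 and Col4a5 2.11 in the stomach against the colon, and Col1a1 0.036 in the ileum against the jejunum. With that averaging, the count of lower genes was 1 for stomach against small bowel, 2 for colon against small bowel, 2 for stomach against colon and 0 for ileum against jejunum, and 1 gene was higher in the ileum. The count lower in stomach than in small bowel samples was 1 under quantile normalisation and under normexp. The count lower in the colon was 2 under normexp and 4 with no slide block. For stomach against colon, 6 genes were higher when the filter ignored the stomach flags, and 2 were lower with scan day as a block, with median scaling over bright probes, and with colon 2 and colon 3 taken as 1 sample. With scan day as a block 1 gene was higher in the ileum. Leaving out 1 sample at a time gave 10 to 14 genes higher and 0 to 1 lower for stomach against small bowel, 6 to 12 higher and 1 to 2 lower for colon against small bowel, 6 to 12 higher and 1 to 4 lower for stomach against colon, 0 to 0 higher and 0 to 4 lower for duodenum against jejunum, 0 to 4 higher and 1 to 4 lower for ileum against jejunum, and 16 to 22 by the F test. Same-numbered samples of different segments correlated between -0.421 and 0.293 (6 of 30 pairs over 0.1). Duodenum and jejunum samples of 1 slide, whose numbers differ, correlated between 0.491 and 0.553. Slides therefore weigh on these values, which cannot show whether same-numbered samples came from 1 animal. Equal numbers were not treated as pairs in the main fit. With the replicate block, 13 genes were higher in the stomach and 11 in the colon than in the small bowel, and 1 was higher in the ileum than in the jejunum. The median stomach shift of all genes was 0.28, and 0.107 under quantile normalisation, 0.019 under normexp followed by quantile normalisation and 0.375 under scaling over bright probes. The causes were not tested.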

Other observations

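Enzymes that cut collagen and laminin, and their inhibitors, were read from a list of 21 genes, of which 20 were tested. In the colon against the small bowel, 3 were higher and 4 lower (12.6% and 13.2% of all genes were). Timp2, an inhibitor of matrix metalloproteinases, had levels of 6.02, 5.86 and 5.69 in the colon, against 0.74 to 2.57 in the small bowel, and was 19.3-fold higher (adjusted p = 1.13e-08 by limma). Timp1, a second inhibitor, was at 3.80, 3.74 and 4.45 in the colon, against -0.28 to 1.21 in 8 small bowel samples (the spot of ileum 1 was left out), and was 11.9-fold higher (adjusted p = 2.18e-06). Both inhibitors were also higher in stomach than in small bowel samples, Timp2 3.5-fold and Timp1 2.44-fold. The gelatinase Mmp2 was 4.54-fold and the epithelial Mmp28 4.87-fold lower in the colon.

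Mmp7, matrilysin, which Paneth cells make in the mouse, had levels of 1.13, 2.01 and 3.14 in the ileum, against -4.04, -0.98 and 0.85 in the jejunum. The groups did not overlap, and the difference was 3.74 ± 0.86 (13.3-fold, adjusted p = 0.0233). Jejunum 1 was the lowest and jejunum 3 the highest of the jejunal samples. Mmp7 was 14.5-fold lower in the stomach and 10.7-fold lower in the colon than in the small bowel.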
